A study of Mus musculus with 8 samples.

Results

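Caveolae coat genes were examined in adhesion-related macrophages (ARMs) and stromal vascular fraction macrophages (SMs) of mouse epididymal white adipose tissue (eWAT). The 8 genes, Cav1, Cav2, Cavin1, Cavin2, Cavin3, Ehd2, Pacsin2 and Pacsin3, were chosen by symbol because their proteins build the caveolar coat or shape its neck. Earlier results of these data were known when they were chosen. All 8 were listed among the 17740 genes of the table for HFD mice and among the 16436 genes of the table for ND mice, with 16136 genes in both. ARMs are the macrophages that stay on floating adipocytes through collagenase digestion and come off by vortexing, and SMs, labelled NARM, come from the stromal pellet. Both were sorted as CD45+ CD11b+ F4/80+ cells from male wild-type C57BL/6J mice, on a normal diet (ND) or on a high-fat diet (HFD, 60% fat) for 8 weeks from 6 weeks of age. RNA-seq was done on 2 libraries for each of the 4 groups, HFD ARM, HFD SM, ND ARM and ND SM. A library was made from the pooled cells of 6 mice on HFD or of 10 on ND. The sources do not say whether replicate pools came from separate digestions, so the tests measure only the spread between these pools.

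Summed estimated read counts ran from 18288775 to 19040133 in the 4 HFD libraries and from 14508824 to 16319038 in the 4 ND libraries. Levels are given as FPKM (fragments per kilobase of transcript, scaled to depth), which can be compared between genes of different length. The macrophage label was checked against 10 markers. Their summed FPKM was 8780 and 8300 in HFD SMs, 8720 and 8410 in HFD ARMs, 10400 and 10500 in ND SMs, and 10500 and 10900 in ND ARMs. The log2 ratio of the ARM to the SM sum was 0.00 on HFD and 0.03 on ND. Lyz2 alone made up most of the sum, at a mean of 4600 FPKM in HFD mice and 6060 FPKM in ND mice. None of the 10 was called between ARMs and SMs by edgeR or by DESeq2, and 3 in HFD mice and 2 in ND mice had an unadjusted p under 0.05 in each tool. Single markers differed in both directions, with log2 fold changes of -0.22 for Itgam and 0.17 for Cd68 in HFD mice and 0.33 for Cd14 in ND mice. Among the 8 libraries, replicate 2 of the ND ARMs stood apart from replicate 1 of its group by higher levels of most coat genes and of many markers of other cell types. A value, call or list count without it is given for the coat genes and other listed genes called higher in ND ARMs.

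Caveolae are flask-shaped invaginations of the plasma membrane that are abundant in adipocytes, endothelial cells and muscle and are usually sparse in blood-derived leukocytes. Caveolins are hairpin membrane proteins that form the inner coat. Cavins assemble around them as a peripheral coat, EHD2 is an ATPase ring that holds the neck at the surface, and PACSIN (syndapin) proteins bend the neck membrane through an F-BAR domain.

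Cav1 (Entrez 12389) lies at chr6:17306335-17341328 of GRCm38.p6, and Cav2 (12390) at chr6:17281185-17289130, with 17.2 kb between them. The other 6 genes are not near each other. Cavin1 (19285) is at chr11:100956736-100970617, Cavin2 (20324) at chr1:51289126-51302960, Cavin3 (109042) at chr7:105480616-105482197, Ehd2 (259300) at chr7:15946963-15967535, Pacsin2 (23970) at chr15:83375607-83464610 and Pacsin3 (80708) at chr2:91255875-91264680. RefSeq annotates each as protein-coding.

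Promoters in RefSeq (GRCm38.p6) cover 250 bases before and 50 bases after each annotated start, and 7 of the 8 genes matched, with 12 promoters. Cavin3 was not matched. Printed here are the outermost promoters of the 4 genes called higher in ARMs of both diets and that of Cav2, the neighbor of Cav1 that was not called. Motifs were searched on both strands as TGANTCA (the AP-1 element), GGGCGG (the GC box), CCAAT and the CArG box of serum response factor, and matches stand in capitals.
Cav1, chr6:17306085-17306384, plus strand: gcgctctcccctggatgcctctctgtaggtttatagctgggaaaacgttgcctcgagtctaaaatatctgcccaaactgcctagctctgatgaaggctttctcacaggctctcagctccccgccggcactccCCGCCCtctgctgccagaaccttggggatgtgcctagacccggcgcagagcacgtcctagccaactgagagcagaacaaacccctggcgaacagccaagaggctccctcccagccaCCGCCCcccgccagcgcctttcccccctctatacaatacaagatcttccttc
Cav2, chr6:17280935-17281234, plus strand: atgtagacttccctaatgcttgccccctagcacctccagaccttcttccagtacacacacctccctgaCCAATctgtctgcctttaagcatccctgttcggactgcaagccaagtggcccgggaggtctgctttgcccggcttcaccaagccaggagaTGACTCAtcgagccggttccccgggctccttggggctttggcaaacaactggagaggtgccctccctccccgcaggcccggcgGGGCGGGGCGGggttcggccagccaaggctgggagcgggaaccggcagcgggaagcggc
Cavin1, chr11:100970568-100970867, minus strand: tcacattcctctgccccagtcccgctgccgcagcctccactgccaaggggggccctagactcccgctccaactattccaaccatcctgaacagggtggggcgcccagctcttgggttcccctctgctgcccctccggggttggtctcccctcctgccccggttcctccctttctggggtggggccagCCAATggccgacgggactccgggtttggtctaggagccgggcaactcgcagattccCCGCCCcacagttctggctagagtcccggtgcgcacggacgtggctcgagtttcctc
Cavin2, chr1:51288876-51289175, plus strand: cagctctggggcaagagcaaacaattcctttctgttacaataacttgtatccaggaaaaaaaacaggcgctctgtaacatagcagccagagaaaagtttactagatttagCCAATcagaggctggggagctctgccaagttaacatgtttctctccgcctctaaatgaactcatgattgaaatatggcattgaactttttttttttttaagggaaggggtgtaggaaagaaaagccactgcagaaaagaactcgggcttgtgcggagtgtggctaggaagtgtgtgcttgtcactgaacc
Ehd2, chr7:15967486-15967785, minus strand: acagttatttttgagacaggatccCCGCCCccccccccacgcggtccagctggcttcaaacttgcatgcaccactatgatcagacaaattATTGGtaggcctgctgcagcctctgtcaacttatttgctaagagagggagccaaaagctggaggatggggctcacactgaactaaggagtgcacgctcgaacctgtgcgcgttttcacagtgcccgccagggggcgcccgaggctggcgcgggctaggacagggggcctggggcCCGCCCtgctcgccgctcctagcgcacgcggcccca
The Cav1 promoter held 2 matches of GGGCGG and none of the other 3 motifs. The Cav2 promoter held 2 overlapping GGGCGG matches, 1 CCAAT match and 1 TGANTCA match. Cavin1 had 1 GGGCGG match and 1 CCAAT match, Ehd2 had 2 and 1, and Cavin2 had 1 CCAAT match. None of the 4 motifs searched was shared by the 4 called genes. Of 32851 mouse promoters of this length, 35.7% held GGGCGG, 37.4% CCAAT, 7.81% TGANTCA and 1.63% the CArG box, which none of the 5 sequences held.

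Caveolins came first, and they split. Cav1 encodes the caveolin without which most cells form no caveolae. Cav1 was at 11.7 and 8.54 FPKM in HFD SMs and at 30.1 and 31.5 FPKM in HFD ARMs. In ND mice, Cav1 was at 8.15 and 8.92 FPKM in SMs and at 13.9 and 25.1 FPKM in ARMs. In each diet the lower ARM value exceeded the higher SM value, and the 2 ND ARM libraries lay far apart. The log2 fold change of ARMs over SMs was 1.60 (SE 0.11) in HFD mice and 1.17 (SE 0.19) in ND mice, with adjusted p of 2.35e-05 and 0.00198 in edgeR's quasi-likelihood test. By fold change Cav1 ranked 151 from the top of 13337 genes tested in HFD mice and 437 of 12441 in ND mice. Without replicate 2 of the ND ARMs, the ND value was 0.72 and was still called (edgeR, adjusted p = 0.0281).

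Cav2 encodes the partner that oligomerizes with caveolin-1. Cav2 was at 12.3 and 9.81 FPKM in HFD SMs and at 14.2 and 13.5 FPKM in HFD ARMs. The ND values of Cav2 were 13.0 and 14.4 FPKM in SMs and 12.4 and 13.3 FPKM in ARMs. HFD ARMs lay slightly above HFD SMs, and in ND mice the groups overlapped. The log2 fold change was 0.29 (95% interval 0.05 to 0.53) in HFD mice and -0.08 (-0.33 to 0.16) in ND mice, and neither was called (edgeR, adjusted p = 0.128 and 0.828). Intervals in both diets end below a 1.5-fold change, and the HFD value rested on the SM libraries. It was 0.48 without HFD SM replicate 1, with a low p but under 1.5-fold, and 0.13 without HFD SM replicate 2 (edgeR, adjusted p = 0.00141 and 0.447). Thus SMs held more Cav2 than Cav1 message per length, 1.05 and 1.15 times in HFD and 1.60 and 1.62 times in ND mice, whereas ARMs held less, 0.473 and 0.429 times in HFD and 0.893 and 0.533 times in ND mice.

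**Figure D1:**
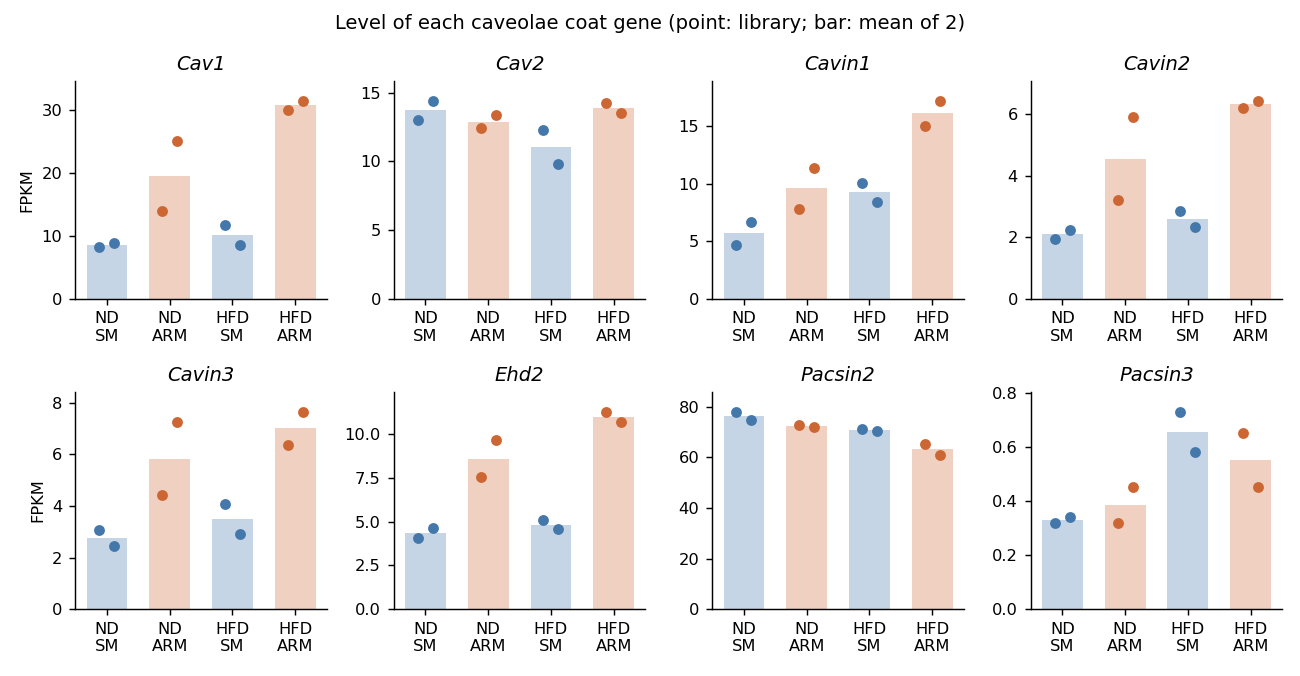
FPKM of each coat gene in the 8 libraries, with 1 panel per gene, groups on the x axis, a point for each library and a bar for the mean of 2. Cav1, Cavin1, Cavin2, Cavin3 and Ehd2 are higher in ARMs (orange) than in SMs (blue) of the same diet in every library, whereas Cav2 stays between 9.81 and 14.4 FPKM and Pacsin2 between 61.0 and 78.1 FPKM.

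Cavins showed higher levels in ARMs throughout. Cavin1, also called Ptrf, is the cavin that caveola formation requires. Cavin1 was at 10.1 and 8.41 FPKM in HFD SMs and at 15.1 and 17.2 FPKM in HFD ARMs. Cavin1 in ND mice was at 4.68 and 6.67 FPKM in SMs and at 7.82 and 11.4 FPKM in ARMs. The groups did not overlap in either diet, and the lower ND ARM library was close to the higher ND SM library. Its log2 fold change was 0.77 (SE 0.10) in HFD mice and 0.76 (SE 0.18) in ND mice, with adjusted p of 0.000885 and 0.0273 in edgeR. With ND ARM replicate 2 left out the ND value was 0.46, with ND SM replicate 1 left out it was 0.52, and neither was called (edgeR, adjusted p = 0.434 and 0.243). Cavin1 was also not called in HFD mice without a filter on low counts, nor in ND mice in limma on log2 FPKM.

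Cavin2, or Sdpr, is known to help curve caveolar membranes. Cavin2 was at 2.86 and 2.32 FPKM in HFD SMs and at 6.22 and 6.44 FPKM in HFD ARMs. Cavin2 in ND mice was at 1.94 and 2.24 FPKM in SMs and at 3.21 and 5.91 FPKM in ARMs. All 4 ARM values were above all 4 SM values. The log2 fold change was 1.26 (SE 0.12) in HFD mice and 1.12 (SE 0.25) in ND mice, with adjusted p of 0.000151 and 0.015 in edgeR. Without replicate 2 of the ND ARMs it was 0.61 in ND mice and not called (edgeR, adjusted p = 0.269). Limma on log2 FPKM did not call Cavin2 in ND mice either.

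Cavin3, or Prkcdbp, is a cavin implicated in caveolar trafficking. Its counts were low, from 34 to 141 per library. Cavin3 was at 4.07 and 2.93 FPKM in HFD SMs and at 6.37 and 7.66 FPKM in HFD ARMs. Cavin3 in ND mice was at 3.07 and 2.44 FPKM in SMs and at 4.42 and 7.25 FPKM in ARMs. ARMs lay above SMs without overlap in both diets. Similar fold changes fell on opposite sides of the threshold, with a log2 value of 0.97 (SE 0.20) called in HFD mice and 1.07 (SE 0.30) not called in ND mice (edgeR, adjusted p = 0.0134 and 0.0538). The HFD call was lost without HFD ARM replicate 1, at 1.09, and without HFD ARM replicate 2, at 0.85, both still over 1.5-fold (edgeR, adjusted p = 0.0738 and 0.183), and it was also lost without a filter on low counts. In ND mice Cavin3 was called without ND ARM replicate 1, at 1.40 (edgeR, adjusted p = 0.0142), and on all libraries with library totals, upper-quartile factors, no filter, a filter of 10 counts, a replicate block or 1 fit of all 8 libraries, but not in DESeq2 or limma. Its ND call thus depended on the settings.

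The neck gene Ehd2 had the smallest SE of the called genes in each diet. Ehd2 was at 5.07 and 4.56 FPKM in HFD SMs and at 11.3 and 10.7 FPKM in HFD ARMs. In ND mice Ehd2 was at 4.06 and 4.62 FPKM in SMs and at 7.53 and 9.62 FPKM in ARMs. Again no ARM library reached down to an SM library. The log2 fold change was 1.13 (SE 0.08) in HFD mice and 0.87 (SE 0.15) in ND mice, with adjusted p of 4.07e-05 and 0.00209 in edgeR. Without replicate 2 of the ND ARMs the ND value of Ehd2 was 0.71 and missed the threshold (edgeR, adjusted p = 0.0598).

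Neither Pacsin gene was called. Pacsin2, the widely expressed member that also serves endocytosis outside caveolae, was the most abundant coat gene in each group. Pacsin2 was at 71.2 and 70.5 FPKM in HFD SMs and at 65.2 and 61.0 FPKM in HFD ARMs. In ND mice it was at 78.1 and 74.8 FPKM in SMs and at 72.7 and 71.9 FPKM in ARMs. ARM libraries lay just below SM libraries in each diet. The log2 fold change was -0.19 (95% interval -0.34 to -0.05) in HFD mice and -0.06 (-0.26 to 0.14) in ND mice, and neither was called (edgeR, adjusted p = 0.097 and 0.841). Pacsin3, a relative best known from muscle, was near the detection limit. It had 26 and 20 counts in HFD SMs, 24 and 16 in HFD ARMs, 9 and 9 in ND SMs, and 9 and 12 in ND ARMs. The groups overlapped, and Pacsin3 passed the filter on low counts only in HFD mice, where the log2 fold change was -0.18 (95% interval -0.98 to 0.63), too wide to exclude a 1.5-fold change either way.

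Together, 5 of the 8 coat genes tested in HFD mice were called higher in ARMs, meaning more than 1.5-fold with an edgeR adjusted p below 0.05, where 4.46% of all 13337 genes tested were called higher. In ND mice 4 of the 7 tested were called higher, where 3.55% of 12441 genes were. The genes were chosen with earlier results of these data known, and the paper had reported Cav1, Cavin1 and Cavin2 as higher in ARMs. These counts are thus no independent test of the set. No coat gene was called lower by edgeR or DESeq2, and 0.292% of genes in HFD mice and 0.129% in ND mice were. Pacsin2 in HFD mice was the only coat gene lower in ARMs at an unadjusted p under 0.05, in either tool. The median log2 fold change was 0.87 over the 8 coat genes tested in HFD mice and 0.87 over the 7 tested in ND mice, and 0.97 in HFD mice over the same 7, against -0.01 (HFD) and -0.02 (ND) over all genes tested. The ND count rested on 1 library and on the settings. It was 5 in several other edgeR fits, which added Cavin3, and 2 in limma, and without replicate 2 of the ND ARMs only Cav1 was called, 1 of 7. DESeq2 called the same 5 genes in HFD mice and the same 4 in ND mice, among 381 and 266 calls over all genes. The HFD count was 3 in edgeR without a filter on low counts, where Cavin1 and Cavin3 were lost. Calls over all genes fell as well, from 634 to 181 in that fit and from 458 to 214 and 219 in ND limma (pseudocounts 1 and 0.1). They also fell without ND ARM replicate 2. Limma on log2(FPKM + 1) without a filter called 0 coat genes in either diet, with 6 (HFD) and 5 (ND) at an unadjusted p under 0.05. Over all genes it called 35 in HFD mice and 0 in ND mice. In bulk RNA, a larger share of cells that carry a message and more of that message per cell cannot be told apart.

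**Figure D2:**
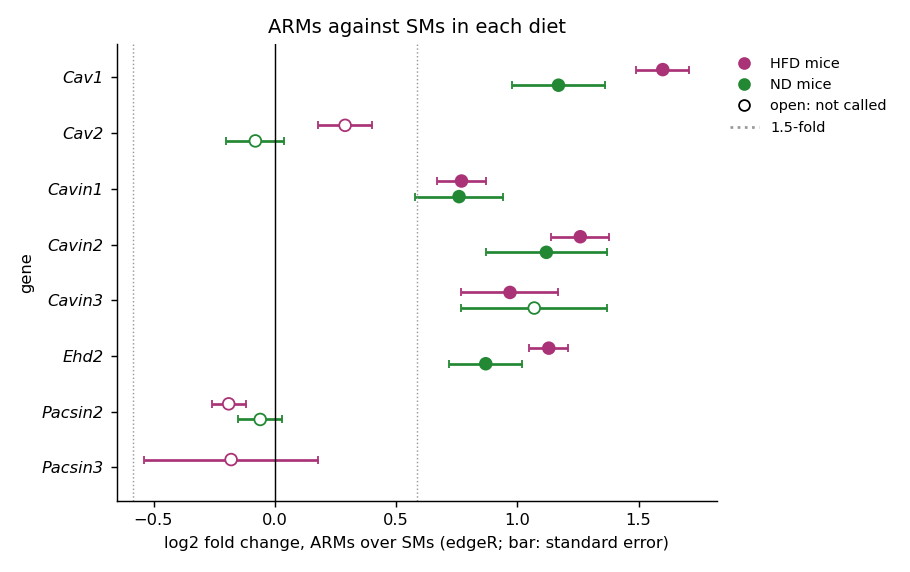
Log2 fold change of ARMs over SMs for each coat gene on the x axis, in HFD mice (purple) and ND mice (green), with the standard error as bars, filled points for called genes and dotted lines at a 1.5-fold change. Cav1 is farthest to the right in each diet, at 1.60 and 1.17, and Cav2, Pacsin2 and Pacsin3 lie between the dotted lines, Pacsin3 being tested in HFD mice only.

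The composition of the coat message therefore differed between ARMs and SMs. In HFD SMs the order of mean FPKM was Pacsin2 (70.8), Cav2 (11.1), Cav1 (10.1), Cavin1 (9.26), Ehd2 (4.81), Cavin3 (3.50), Cavin2 (2.59) and Pacsin3 (0.655). Cav2, Cav1 and Cavin1 overlapped with their neighbors in that order. In HFD ARMs Cav1 stood second at 30.8 FPKM, followed by Cavin1 (16.1), Cav2 (13.9) and Ehd2, and only Cavin3 (7.02) and Cavin2 (6.33) overlapped. In ND SMs the order was Pacsin2, Cav2, Cav1, Cavin1, Ehd2, Cavin3, Cavin2 and Pacsin3, with no overlap between neighbors. In ND ARMs Cav1 (19.5) also passed Cav2 (12.9), and Cavin1 (9.60) and Ehd2 (8.57) overlapped, as did Cavin3 (5.83) and Cavin2 (4.56).

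Pacsin2 made up 62.8% of the summed coat FPKM in HFD SMs and 67.1% in ND SMs, and 42.4% and 54.1% in HFD and ND ARMs. Cav1 made up 8.96% and 7.49% in SMs and 20.7% and 14.6% in ARMs of HFD and ND mice. The 7 genes other than Pacsin2 summed to 46.9 and 37.2 FPKM in HFD SMs and to 83.8 and 87.4 FPKM in HFD ARMs. In ND mice they summed to 35.2 and 39.6 FPKM in SMs and to 49.7 and 73.0 FPKM in ARMs. The sum was higher in each ARM library than in either SM library of its diet, and the log2 ratio of ARMs to SMs was 1.03 on HFD and 0.71 on ND. Among all genes tested in HFD mice, 92.2% had a lower mean FPKM than Pacsin2, 75.5% lower than Cav1 and 40.9% lower than Cavin2, each mean being over the 4 HFD libraries.

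Ratios within a library do not depend on its scaling. Cavin2 per Cav1 was 0.245 and 0.272 in HFD SMs, 0.207 and 0.205 in HFD ARMs, 0.238 and 0.251 in ND SMs, and 0.230 and 0.236 in ND ARMs. It was the steadiest of the ratios, staying between 0.205 and 0.272 over 8 libraries while Cav1 itself ranged from 8.15 to 31.5 FPKM. Cavin1 per Cav1 was 0.865 and 0.985 in HFD SMs and 0.501 and 0.547 in HFD ARMs. In ND mice it was 0.574 and 0.748 in SMs and 0.561 and 0.454 in ARMs. Cavin1 was thus lower relative to Cav1 in ARMs of each diet, with a narrow gap in ND mice. Ehd2 per Cav1 was 0.434 and 0.534 in HFD SMs against 0.375 and 0.339 in HFD ARMs, and overlapped in ND mice at 0.498 and 0.518 against 0.540 and 0.384.

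**Figure D3:**
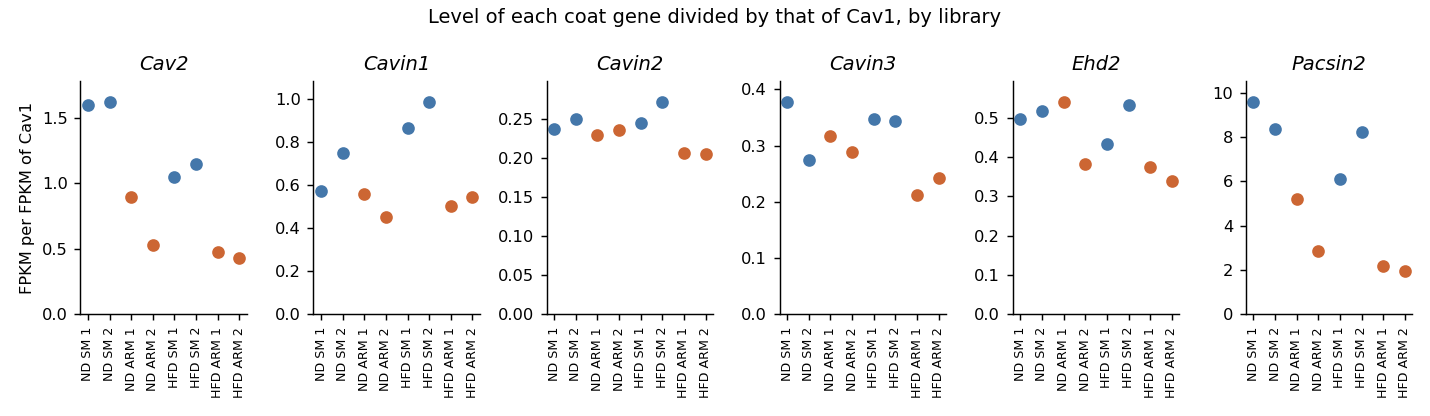
FPKM of 6 coat genes divided by the FPKM of Cav1 in the same library (y axis), for each of the 8 libraries (x axis), in SMs (blue) and ARMs (orange). Cavin2 stays between 0.205 and 0.272 per Cav1, whereas Cav2 falls from 1.05 or more in SMs to 0.893 or less in ARMs and Pacsin2 from 6.09 or more to 5.22 or less.

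Whether the ARM against SM change differed between the diets was tested as the interaction of cell type and diet over all 8 libraries. In edgeR, 22 of 13358 genes were called (0.165%), and 0 of the 8 coat genes were, with 1 (Cav2) at an unadjusted p under 0.05. Over all genes 1017 (7.61%) were at that unadjusted p, so that 1 of 8 is near the share of all genes. DESeq2 called 80 genes, and its automatic filter left an adjusted p for 3309 of 16134 genes and, of the 8, for Pacsin2 alone, which was not called. None of the 8 had an unadjusted p under 0.05 in DESeq2. The edgeR count of 1 was not stable with a library left out, and the share of all genes at that p was not counted there. None of the 8 was called in any fit. The difference, HFD minus ND, was 0.41 for Cav1 (95% interval -0.19 to 1.01), 0.36 for Cav2 (0.01 to 0.71) and 0.24 for Ehd2 (-0.14 to 0.63). For the cavins it was 0.00 for Cavin1 (-0.54 to 0.55), 0.13 for Cavin2 (-0.55 to 0.82) and -0.12 for Cavin3 (-0.93 to 0.70). The difference was -0.15 for Pacsin2 (-0.38 to 0.09) and -0.41 for Pacsin3 (-1.73 to 0.90). The intervals of Cav1, Cav2, Cavin2, Cavin3, Ehd2 and Pacsin3 reach past a 1.5-fold difference, so that a diet difference of that size is not excluded for them, and those of Cavin1 and Pacsin2 do not. Left-out libraries moved the value of Cav1 from 0.09 (no ND ARM replicate 1) to 0.87 (no ND ARM replicate 2), neither called (edgeR, adjusted p = 0.934 and 0.0782), and that of Cavin2 from -0.22 to 0.65.

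HFD and ND levels come from tables that were made separately, so that diet and table cannot be told apart and no test was run. The gene length implied by counts per FPKM was a median of 1.06 times longer in the HFD table over all shared genes, 1.01 times for Cav1, 1.05 for Cav2, 1.06 for Cavin1 and Cavin2, 1.15 for Cavin3, 1.17 for Ehd2, 0.956 for Pacsin2 and 1.07 for Pacsin3. Within ARMs, both HFD libraries were above both ND libraries for 5 of the 8 coat genes (25.8% of the 12343 genes tested in both diets) and below for 1, Pacsin2 (46.0%). Those 5 were Cavin1, whose log2 ratio was 0.75, Cav1 (0.66), Cavin2 (0.47), Ehd2 (0.35) and Cav2 (0.10). The median log2 ratio of the coat genes in ARMs was 0.41, against -0.12 over all genes. Within SMs, the HFD libraries were above for 3, Cavin1 (0.71), Cavin2 (0.31) and Pacsin3 (0.99), where 24.6% of genes were, and below for 2, Cav2 (-0.31) and Pacsin2 (-0.11), where 49.5% were. Pacsin3, at 9 and 9 counts in ND SMs, was below the filter there and is not among the 12343 genes of these shares. Without it only Cavin1 and Cavin2 were above in FPKM. It is also in the counts for TPM and CPM in SMs and for CPM in ARMs. The median in SMs was 0.28, against -0.15 over all genes. The count in SMs depended on the scale, since it was 6 in TPM and 6 in CPM, where Cav1, Cavin3 and Ehd2 were added and where 29.3% and 34.9% of all genes were above. In ARMs it was 5 in TPM (27.6% of genes) and 7 in CPM (34.0%). The order of the coat genes in ARMs rested on ND ARM replicate 2, since without it the log2 ratio was 1.14 for Cav1, 1.04 for Cavin1 and 0.98 for Cavin2.

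Other genes of the pathway were taken from a list of 13 relatives and partners, comprising the muscle isoforms Cav3 and Cavin4, paralogs, the neck GTPase dynamin-2, filamins that tether caveolae to actin, kinases of caveolin-1 and the scaffold Ror1. Cav3 and Cavin4 were listed in neither table. Of 11 tested in HFD mice, 3 were called higher and none lower by edgeR, and of 9 tested in ND mice none was called, with 4 at an unadjusted p under 0.05 in each diet. DESeq2 called none of them, with 4 (HFD) and 3 (ND) at an unadjusted p under 0.05. The 3 were Ehd3, with 0.18 and 0.14 FPKM in SMs and 0.52 and 0.56 FPKM in ARMs, Yes1 and Src. Src, a kinase that phosphorylates caveolin-1, was at 1.12 and 1.37 FPKM in HFD SMs and at 2.14 and 2.15 FPKM in HFD ARMs, with a log2 fold change of 0.74 (edgeR, adjusted p = 0.016). The most abundant relative was Ehd4, at a mean of 170 FPKM in HFD and 280 FPKM in ND mice, with a log2 fold change of -0.10 in each diet. The EHD paralogs thus differed by level, since Ehd1 and Ehd4 were over 100 FPKM and not called, whereas Ehd2, the caveolar member, was at means of 7.88 and 6.46 FPKM in HFD and ND mice and was called. Ehd3, at a mean of 0.35 FPKM in HFD mice, was called there by edgeR too, with a log2 fold change of 1.68, and was below the filter in ND mice. Median log2 fold changes of the list were 0.28 in HFD and 0.34 in ND mice.

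Of 12 receptors, transporters and enzymes known to reside in caveolae, 5 were called higher in HFD ARMs and 1 in ND ARMs, with medians of 0.53 and 0.31. Aoc3, a vascular and adipocyte amine oxidase, was called in both diets, in ND mice only with ARM replicate 2, since without it the log2 value was 0.58 (edgeR, adjusted p = 0.275). It was at 1.47 and 1.17 FPKM in HFD SMs, 6.06 and 5.27 in HFD ARMs, 1.72 and 1.92 in ND SMs, and 2.86 and 5.45 in ND ARMs. The other 4 called in HFD mice were Nos3 (log2 fold change 1.76), Kdr (1.42), Plvap (1.41) and the lipoprotein receptor Scarb1 (0.69). Kdr and Plvap are also on the endothelial list below. The abundant residents were not called, with Cd36, a fatty acid transporter, at means of 741 and 841 FPKM and log2 values of -0.08 and 0.02 in HFD and ND mice. Hmox1, the most abundant, was at 1300 and 1290 FPKM in HFD SMs and 1090 and 926 FPKM in HFD ARMs. It was lower in HFD ARMs with a low p, but its log2 value of -0.39 was within the 1.5-fold threshold (edgeR, adjusted p = 0.0134).

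Other membrane coats did not share the pattern. None of 20 genes of the clathrin coat and its adaptors was called in either diet by edgeR or DESeq2, with 7 in HFD mice and none in ND mice at an unadjusted p under 0.05 in each tool, and their median log2 fold changes were -0.09 and -0.01. In edgeR the 7 were all slightly lower in HFD ARMs. Ap2m1 (-0.27), Eps15 (-0.25) and Fcho2 (-0.24) had a low p but were under 1.5-fold (edgeR, adjusted p = 0.0177, 0.0251 and 0.0491). None of 6 genes for flotillins and other microdomain proteins was called either, by either tool, with 1 in HFD mice and none in ND mice at an unadjusted p under 0.05 in each, and a median of 0.03 in each diet. Flot1 was at means of 23.6 and 25.0 FPKM and Flot2 at 28.1 and 31.6 FPKM in HFD and ND mice.

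**Figure D4:**
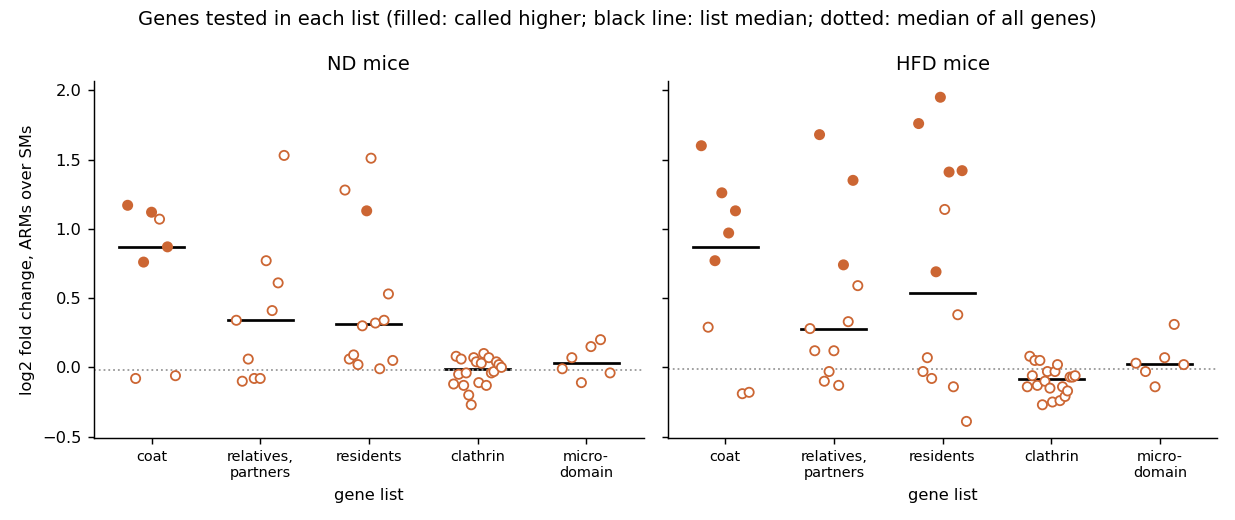
Log2 fold change of ARMs over SMs (y axis) for each tested gene of the coat and of 4 other lists (x axis), in ND and HFD mice, with filled points for genes called higher, a black line at the list median and a dotted line at the median of all genes tested. Coat genes have a median of 0.87 in each diet (8 genes in HFD and 7 in ND mice), and all clathrin genes lie between -0.27 and 0.10.

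Genes with the profile most like a coat gene were found by the root-mean-square difference of log2 CPM, centred within each diet, over the 8 libraries and 11705 genes with a mean of at least 1 CPM in each diet. For Cav1 they were Tie1 (0.102), Mcam (0.106), Palmd (0.107), Dll4 (0.122) and Cavin2 (0.132), against a median of 0.748 over all genes. Tie1, an endothelial receptor tyrosine kinase, Mcam, an adhesion molecule of vessels, and Dll4, a Notch ligand, were low, at means of 2.11, 2.50 and 1.34 FPKM in HFD mice. Among 11704 genes ranked by likeness to Cav1, Cavin2 was number 5, Ehd2 91, Cavin3 109, Cavin1 272, Cav2 1849 and Pacsin2 9061.
For Cavin1 the nearest were Iglon5 (0.095), Gpx3 (0.096), Lilra5 (0.103), Basp1 (0.108) and Vash1 (0.115), and Ehd2 was the nearest coat gene, at number 68. Among these, Gpx3, Lilra5 and Basp1 were called in both diets, in ND mice only with ARM replicate 2, and Gpx3, a secreted peroxidase, was at means of 25.2 and 52.9 FPKM in HFD and ND mice. For Pacsin2 the nearest were St6gal1 (0.015), C1qc (0.017), Tob2 (0.017), Nbr1 (0.019) and Pttg1ip (0.021), none of them called, and the median over all genes was only 0.13. Cav2 was at 0.205 from Pacsin2, number 8920 of 11704 genes and beyond that median. From Cav1 it was at 0.653, number 1849 and within the median of 0.748 for Cav1.

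Markers of several other cell types, not of all, were also called higher in ARMs. The 12 adipocyte markers summed to 27.7 and 30.1 FPKM in HFD SMs and to 96.9 and 105 FPKM in HFD ARMs, and to 45.1 and 55.2 FPKM in ND SMs and 90.3 and 153 FPKM in ND ARMs. Of those tested, 10 of 12 were called higher in HFD ARMs and 8 of 11 in ND ARMs (9 and 6 in DESeq2), and without ND ARM replicate 2 the ND count was 2. The most abundant was Lipe in HFD mice, at 15.9 FPKM in SMs and 20.5 FPKM in ARMs, and Cfd in ND mice, at 17.9 and 55.1 FPKM. Adiponectin (Adipoq) was at 1.90 and 1.99 FPKM in HFD SMs and 13.0 and 15.7 FPKM in HFD ARMs. Adipocyte messages were thus present in all libraries and higher in ARMs, and no marker of the list was at 0 throughout a diet.
The 12 endothelial markers summed to 23.7 and 16.2 FPKM in HFD SMs and 56.6 and 55.5 FPKM in HFD ARMs, with 11 called higher. In ND mice they summed to 11 and 13.4 FPKM in SMs and 13.9 and 26.9 FPKM in ARMs, with 1 called higher (Tek), 0 by DESeq2 and 7 at an unadjusted p under 0.05 in edgeR. Their most abundant gene was Cdh5, at a mean of 7.56 FPKM in HFD mice and 3.40 FPKM in ND mice. As with the coat genes, replicate 2 of the ND ARMs was the high library of its group, and Tek was not called without it.
Cav1 per summed endothelial FPKM was 0.493 and 0.526 in HFD SMs, 0.531 and 0.567 in HFD ARMs, 0.741 and 0.666 in ND SMs, and 1.0 and 0.929 in ND ARMs. Per summed adipocyte FPKM it was 0.422 and 0.284 in HFD SMs, 0.310 and 0.299 in HFD ARMs, 0.181 and 0.162 in ND SMs, and 0.154 and 0.163 in ND ARMs. The HFD values rested in part on Lipe, which was not called. Lipe was 15.5 and 16.3 of the 27.7 and 30.1 FPKM summed in HFD SMs, and 19.9 and 21.1 of 96.9 and 105 FPKM in HFD ARMs. Among 4 lists and 2 diets, these ratios of Cav1 were steadiest to the endothelial list in HFD mice and to the adipocyte list in ND mice. Cav1 per summed fibroblast FPKM in HFD mice was 0.0891 and 0.0725 in SMs and 0.172 and 0.146 in ARMs, and per summed pericyte and smooth muscle FPKM it was 0.572 and 0.634 in SMs and 0.907 and 1.05 in ARMs. In ND mice the fibroblast ratio of Cav1 went the other way, at 0.1 and 0.0806 in SMs and 0.0613 and 0.0758 in ARMs. Its pericyte and smooth muscle ratio was again higher in ARMs, at 0.967 and 1.25 in ND SMs and 1.46 and 1.79 in ND ARMs. Cavin1 per summed endothelial FPKM was 0.426 and 0.518 in HFD SMs, 0.266 and 0.310 in HFD ARMs, 0.425 and 0.498 in ND SMs, and 0.562 and 0.422 in ND ARMs. Ehd2 per summed endothelial FPKM was 0.214 and 0.281 in HFD SMs, 0.199 and 0.192 in HFD ARMs, 0.369 and 0.345 in ND SMs, and 0.541 and 0.357 in ND ARMs. Both were lower in ARMs in HFD mice and overlapped in ND mice. Per summed adipocyte FPKM in ND mice, Cavin1 was 0.104 and 0.121 in SMs and 0.0866 and 0.0742 in ARMs, and Ehd2 was 0.0900 and 0.0837 in SMs and 0.0834 and 0.0627 in ARMs. In HFD mice the adipocyte ratio of Cavin1 was 0.365 and 0.28 in SMs and 0.155 and 0.164 in ARMs. That of Ehd2 in HFD mice was 0.183 and 0.152 in SMs and 0.116 and 0.101 in ARMs. Other lists gave other directions, as with Ehd2 per summed fibroblast FPKM in HFD mice, at 0.0386 and 0.0387 in SMs and 0.0644 and 0.0495 in ARMs, and per summed pericyte and smooth muscle FPKM in ND mice, at 0.482 and 0.648 in SMs and 0.788 and 0.686 in ARMs. The fibroblast ratio of Ehd2 was lower in ARMs in ND mice, at 0.05 and 0.0417 in SMs and 0.0331 and 0.0291 in ARMs.

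Pericyte and smooth muscle markers were called for 4 of 9 tested in HFD mice and 2 of 8 in ND mice (also 4 and 2 in DESeq2). The 2 in ND mice, Rgs5 and Pdgfrb, were not called without ND ARM replicate 2. The list had sums of 20.4 and 13.5 FPKM in SMs and 33.1 and 30.1 FPKM in ARMs of HFD mice, and of 8.43 and 7.13 FPKM in SMs and 9.56 and 14 FPKM in ARMs of ND mice. Rgs5 led them, at 11.3 FPKM in HFD ARMs. Fibroblast and progenitor markers, led by Dcn, were called for 5 of 9 in HFD mice and 8 of 9 in ND mice (4 and 7 in DESeq2), and for 7 in ND mice without ARM replicate 2. Their sums were 131 and 118 FPKM in SMs and 175 and 215 FPKM in ARMs of HFD mice, and 81.2 and 111 FPKM in SMs and 228 and 330 FPKM in ARMs of ND mice.
Mesothelial markers, led by Upk3b, were called for 0 of 8 in HFD mice by edgeR and DESeq2, with 1 and 0 at an unadjusted p under 0.05, and for 7 of 8 in ND mice (6 in DESeq2), or 4 without ND ARM replicate 2. They summed to 15.2 and 7.93 FPKM in SMs and 17.4 and 12.7 FPKM in ARMs of HFD mice, and to 5.65 and 7.28 FPKM in SMs and 18.9 and 24.7 FPKM in ARMs of ND mice. Lymphatic endothelial markers were called for 3 of 6 in HFD mice and 4 of 6 in ND mice (1 and 3 in DESeq2, and 3 in ND mice without ARM replicate 2), and their sum, led by Pdpn, was 4.84 and 7.19 FPKM in SMs and 9.34 and 11.6 FPKM in ARMs of HFD mice, and 2.90 and 3.48 FPKM in SMs and 10.3 and 11.3 FPKM in ARMs of ND mice.
T and NK cell markers summed to at most 1.53 FPKM in any library, and B cell markers to at most 5.85 FPKM. Of 5 T and NK cell markers, the HFD test included 1 and the ND test 0, the others being below the filter on low counts, so that the list was mostly not tested. Of 4 B cell markers, 3 were tested in each diet and none was called by edgeR or DESeq2, with 1 at an unadjusted p under 0.05 in HFD mice in edgeR and 0 in DESeq2. Neutrophil markers, led by S100a9, summed to 58.4 and 45.7 FPKM in ND SMs and 10.2 and 30.6 FPKM in ND ARMs, with S100a9 called lower, and to between 5.34 and 11.2 FPKM in HFD libraries, with none called by either tool and 1 at an unadjusted p under 0.05 in edgeR and 0 in DESeq2. The cells were sorted on CD45, CD11b and F4/80, which adipocytes and endothelial cells lack. The part of other cells or of their RNA in the coat gene values was not tested.

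**Figure D5:**
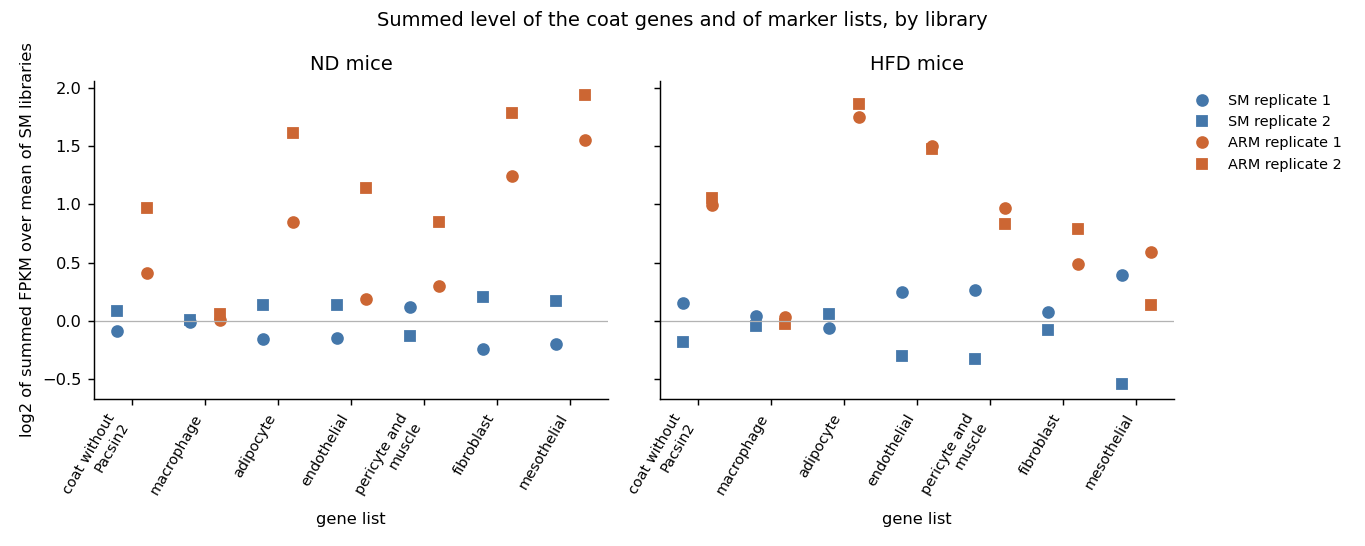
Summed FPKM of the 7 coat genes without Pacsin2 and of 6 marker lists (x axis), as log2 over the mean of the SM libraries of the diet (y axis), with a circle for replicate 1 and a square for replicate 2 of SMs (blue) and ARMs (orange). Macrophage markers stay near 0, whereas the coat genes and the adipocyte, endothelial, pericyte and fibroblast lists are higher in each ARM library than in either SM library.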

How the data were processed

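RNA of sorted cells was sequenced by a company for the authors, and 1 table per diet was deposited. Per the file headers, the authors' estimated counts (expected counts) are reads per gene without scaling to depth. Beside them the authors deposited FPKM, scaled to gene length and depth, and TPM, scaled to length and to a fixed total. The submitters' processing notes name mm10, which is GRCm38. The aligner, counting program and annotation were not given in the sources used here. Estimated counts that were not whole, 32.3 to 32.9% per HFD library and 8.55 to 9.36% per ND library, were rounded to whole numbers for testing.

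ARMs and SMs were compared within each diet with edgeR 4.0.16 (R 4.3.3), with TMM factors, filterByExpr, its quasi-likelihood test and p-values adjusted by Benjamini-Hochberg over every gene tested. A call needs more than 1.5-fold and an adjusted p below 0.05. The interaction was fitted over 8 libraries on genes in both tables. Profiles used log2(CPM + 0.1). Intervals are at 95% and assume the model. Named with values are the 8 coat genes, some listed genes that were called, the most abundant gene of a list, and the 5 nearest genes of Cav1, Cavin1 and Pacsin2. Genes not called were also named, Ehd1, Cd36, Flot1 and Flot2 as known references and Itgam, Cd68 and Cd14 as macrophage markers. Ap2m1, Eps15 and Fcho2 were named as clathrin genes with a low p under 1.5-fold. The members and lists were chosen with earlier results of these data known.

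Alternatives were DESeq2 1.42.0, limma 3.58.1 on log2(FPKM + 1) and log2(FPKM + 0.1), library totals, upper-quartile factors, other filters, the replicate number as a block, 1 fit of all libraries, the log2 threshold of 0.6 with unadjusted p, and each library left out. For diet values, TPM and CPM replaced FPKM. edgeR was tested on simulated data. Exact tests of 2 against 2 libraries cannot go below a p of 0.333 and were not used. Replicate libraries differed by more than counting noise.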

Additional observations from a re-analysis of the deposited data

Results flagged for a closer look

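No coat gene met a criterion for a closer look, since groups of 2 libraries are too small for a check of outlying samples and the interaction called none of the 8. Among listed genes, the ARM against SM change of 2 adipocyte markers differed between diets. The log2 fold change of Lep was 2.98 in HFD and 1.17 in ND mice, a difference of 1.80 (edgeR interaction, adjusted p = 0.038), with ARM libraries above SM libraries in both diets. That of Plin4 was 3.06 and 1.12, a difference of 1.92 (edgeR interaction, adjusted p = 0.0389), again with all 4 ARM libraries above the SM libraries of their diet. Both calls were lost when any 1 of the 4 HFD libraries or of the 2 ND SM libraries was left out, with differences of 1.48 to 2.10 for Lep and 1.68 to 2.17 for Plin4, and were kept without either ND ARM library. DESeq2 gave neither gene an adjusted p.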

How the results depend on the processing

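Coat genes. The 5 calls in HFD mice became 3 without a filter on low counts (Cavin1 and Cavin3 lost), 0 in limma on log2(FPKM + 1) without a filter (6 at an unadjusted p under 0.05), and 4 to 5 with 1 library left out. The 4 calls in ND mice became 5, with Cavin3, under library totals, upper-quartile factors, no filter, at least 10 counts, 1 fit of all libraries and the methods threshold, 2 in limma with either pseudocount (Cavin1 and Cavin2 lost), 0 in limma without a filter (5 at an unadjusted p under 0.05), and 1 to 5 with 1 library left out. Directions of Cav1, Cavin1, Cavin2, Cavin3 and Ehd2 were kept throughout, with lowest values of 1.40 and 0.72 for Cav1 in HFD and ND mice. Pacsin3 in HFD mice moved between -0.50 and 0.10.
Differences between diets. With 1 library left out they lay between -0.27 and 0.31 for Cavin1, -0.22 and 0.65 for Cavin2, and -0.41 and 0.29 for Cavin3.
Replicate numbers. Samples share only a number, and deviations of same-numbered samples correlated at -0.028 (HFD) and 0.221 (ND). As a block, 5 coat genes were called in each diet, 673 genes in HFD mice, 786 in ND mice and 187 in the difference between diets.
All genes. The 634 calls in HFD mice became 381 in DESeq2, 181 without a filter, 331 and 405 in limma (pseudocounts 1 and 0.1), 35 in limma without a filter, 1017 at the methods threshold, and 214 to 637 with 1 library left out. The 458 calls in ND mice became 266, 214 and 219 in DESeq2 and limma, 627 without a filter, 0 in limma without a filter, 888 at the methods threshold, and 188 to 661 with 1 library left out. The 22 calls between diets became 80 in DESeq2, 41 without a filter, and 0 to 102 with 1 library left out. HFD above ND in SMs, 3 coat genes in FPKM, held for 6 in TPM (29.3% of all genes) and 6 in CPM (34.9%), each with Pacsin3, which those shares leave out. The count with 1 library left out is not given. There 1 library is set against 2, which any gene passes more easily, and the share of all genes was not counted.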
